A study of Homo sapiens with 2 samples.

Results

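The narrowest class of PQBP1 contact sites in introns was analysed here, namely the intron peaks of messenger RNAs that filled a single bin of 200 nt. They were taken from the deposited peak list of the pull-down library by 3 labels, the region class intron, the RNA type mRNA and a width of 200 nt. No read value or p-value entered the choice directly. Each peak had passed the peak caller, however, and its width depends on whether neighbouring bins passed too. The rule gave 349 of 1489 peaks (23.4%, Wilson 95% interval 21.4 to 25.7), which lay on 247 of the 718 genes of the list and on 23 chromosomes. They made up 89.7% of the 389 intron peaks on mRNA, and the other 40 were 2 or more bins wide. All 349 carried an NM transcript accession, which RefSeq reserves for protein-coding transcripts, so the RNA type matched the transcript.

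SpyCLIP-seq maps where a protein touches RNA in living cells, by ultraviolet crosslinking, trimming of the RNA and a stringent pull-down through a tag. The cells were HEY, an established human ovarian cancer line, and they overexpressed PQBP1 with FLAG and Spy tags, so contacts were recorded for a tagged protein at a raised level. There was 1 Input library, made without an antibody, and 1 IP library, made with a FLAG antibody, both from cells irradiated at 400 mJ per cm2 and from isolated nuclei. Every value below is from the IP library. With 1 library a group there was no replicate and no test between groups, so the values are descriptions, and more RNA of a gene cannot be told apart from more PQBP1 per RNA.

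PQBP1 is a nuclear protein of the precatalytic spliceosome, the assembly that recognises and removes introns. Introns are part of the primary transcript, and nuclei hold that RNA while it is being made and processed. Reads in an intron can therefore come from pre-mRNA, from an excised or a retained intron, from an exon that the chosen transcript lacks, or from a small RNA that is cut out of the intron, such as the small nucleolar RNAs (snoRNAs) and the small Cajal body RNAs (scaRNAs), both of which guide the modification of other RNAs. The list does not separate these sources. Its positions are given as deposited, counted from 1, in a genome build that was not GRCh38, and no sequence of that build was at hand, so the bases under the peaks are not printed.

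The 1-bin intron peaks were low. A read value was the number of reads in the bin, from 6 to 44, with a median of 8 (quartiles 7 and 11). The floor of 6 reads, the lowest value in the list, held 73 of the 349 peaks (20.9%, 17.0 to 25.5), and 333 peaks had 16 reads or fewer. At a read value of 8 the exact Poisson 95% interval runs from 3.45 to 15.8, so most of these peaks overlapped each other in counting error. Exon peaks are here those of the class exon alone, without the classes of untranslated regions, stop codons and transcription starts. The 707 exon peaks of 1 bin on mRNA had a median of 11 reads (quartiles 9 and 14), and 39 of them (5.52%, 4.06 to 7.45) stood at 6. In the 40 wider intron peaks the median was 13 (11.4 and 15.7). Intron peaks of a single bin were thus the lowest of these 3 classes. Since width depends on whether neighbouring bins passed the peak caller, the difference from the wider intron peaks is not independent of the choice.

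**Figure D1:**
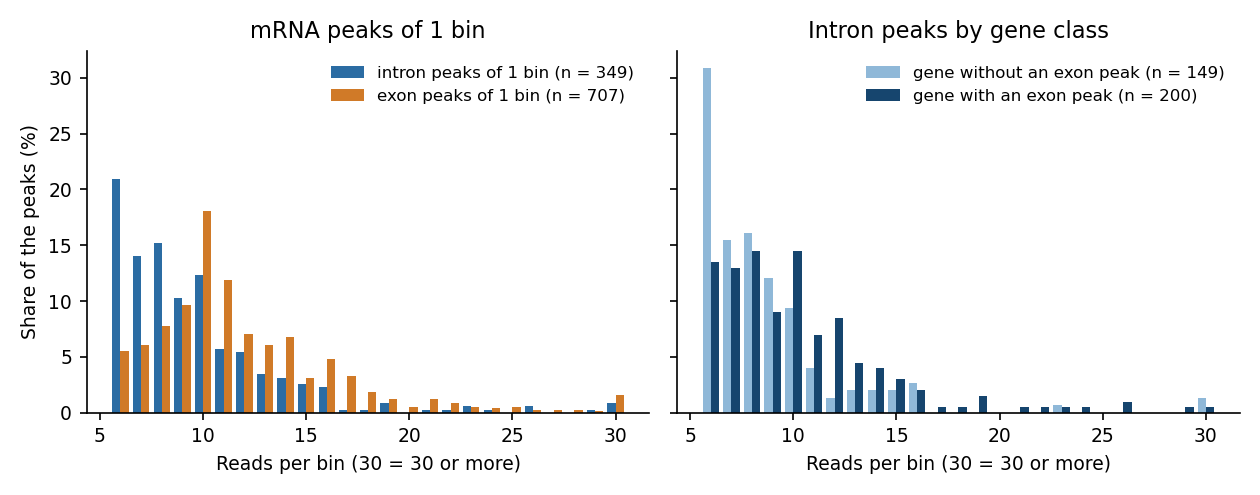
Share of the peaks (y axis, %) at each read value (x axis, reads per 200-nt bin, with 30 or more joined). On the left, the 349 intron peaks pile up at 6 to 8 reads while the 707 exon peaks of the same width are most frequent at 10. On the right, intron peaks are split by whether their gene also has an exon peak, and 30.9% of those in genes without one stand at 6 reads.

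The p-value of each peak, as the peak caller gave it, was also weakest in the 1-bin intron peaks. It was at most 0.001 in 133 of the 349 intron peaks (38.1%, 33.2 to 43.3), against 63.9% (60.3 to 67.4) of the 1-bin exon peaks, 67.5% (52.0 to 79.9) of the wider intron peaks and 58.6% of all peaks of the list. At 1e-05 it was 93 peaks (26.6%, 22.3 to 31.5), against 35.5% of the list. All 73 peaks with 6 reads shared a single p-value, 0.0387. The 43 peaks with 10 reads had 28 different p-values, from 4.28e-08 to 0.00419, so height alone did not set it.

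The 10 highest 1-bin intron peaks were on 10 different genes. IPO7, an importin that carries proteins into the nucleus, had 44 reads (exact Poisson 95% interval 31.97 to 59.1) on chromosome 11 from 9450201 to 9450400. HSP90B1, a chaperone of the endoplasmic reticulum, had 41 reads (29.4 to 55.6) on chromosome 12 from 104332001 to 104332200. ATG16L1, part of the complex that attaches LC3 to autophagy membranes, had 30 reads (20.2 to 42.8) on chromosome 2 from 234197201 to 234197400. These lay well above the bulk, and the intervals of all 3 overlapped each other.

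TOP2A, the topoisomerase that untangles DNA in dividing cells, followed with 29 reads. PLXNB2, a semaphorin receptor, and SRRM2, a scaffold of the spliceosome and of nuclear speckles, had 26 each. LENG8 had 24, and TCF25 and CSNK1D, a casein kinase, had 23 each. ITGA3, the alpha subunit of a laminin-binding integrin, closed the group with 22 (13.8 to 33.3). Only 11 of the 349 peaks had 20 reads or more, these and 1 PLEC peak of 21. IPO7, ATG16L1 and CSNK1D had no exon peak, whereas HSP90B1 had 7 of them.

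The smallest p-value of the list, 5.19e-12, was shared by 9 of the intron peaks. They were the highest peaks of IPO7, HSP90B1, ATG16L1, TOP2A, SRRM2, LENG8, TCF25 and CSNK1D, together with a LAMA5 peak of 19 reads. The PLXNB2 peak of 26 reads came close with 5.59e-12, but the ITGA3 peak of 22 reads had 1.55e-08.

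A set of the genes under these peaks also holds small RNA genes. Gene spans were taken by gene identity from GENCODE release 44 on GRCh38, so this concerns the gene and not the place of the peak. Of 245 genes with a model, 58 (23.7%, 18.8 to 29.4) held an annotated snoRNA, scaRNA or microRNA gene on their strand, and 17 (6.94%, 4.38 to 10.8) held a snoRNA or scaRNA. Among 306 genes with exon peaks and no intron peak the shares were 18.0% (14.1 to 22.7) and 7.84% (5.33 to 11.4), so the intervals overlapped. With intron peaks limited to a p-value of at most 0.001 or to 10 reads or more, the share with any small RNA gene was 38.8% (29.7 to 48.7) and 38.6% (29.7 to 48.4), above the interval of the exon genes, to which no such limit was applied. The heights differed more. The 18 peaks in genes with a snoRNA or scaRNA had a median of 12 reads (range 6 to 44), the 63 in genes with microRNA genes alone a median of 10 (6 to 41), and the 265 in genes with none a median of 8 (6 to 29). At least 10 reads were reached by 15 of 18, 38 of 63 and 84 of 265 peaks. The shares were 83.3% (60.8 to 94.2), 60.3% (48.0 to 71.5) and 31.7% (26.4 to 37.5). The background over all peaks of the list was 67.4%. The intervals of the snoRNA or scaRNA and microRNA classes overlapped, and both lay above that of genes with none. The 63 peaks lay on 41 genes, with 9 on LAMA5, and the 265 on 187 genes. The intervals count peaks of the same gene separately, so they are too narrow for a statement about genes. A microRNA gene was held by 23.9% (16.8 to 32.7) of genes with exon peaks too and 11.8% (7.37 to 18.3) of those without. For a snoRNA or scaRNA it was 6.42% and 7.35%. Whether the height difference remains among genes with exon peaks was not tested.

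**Figure D2:**
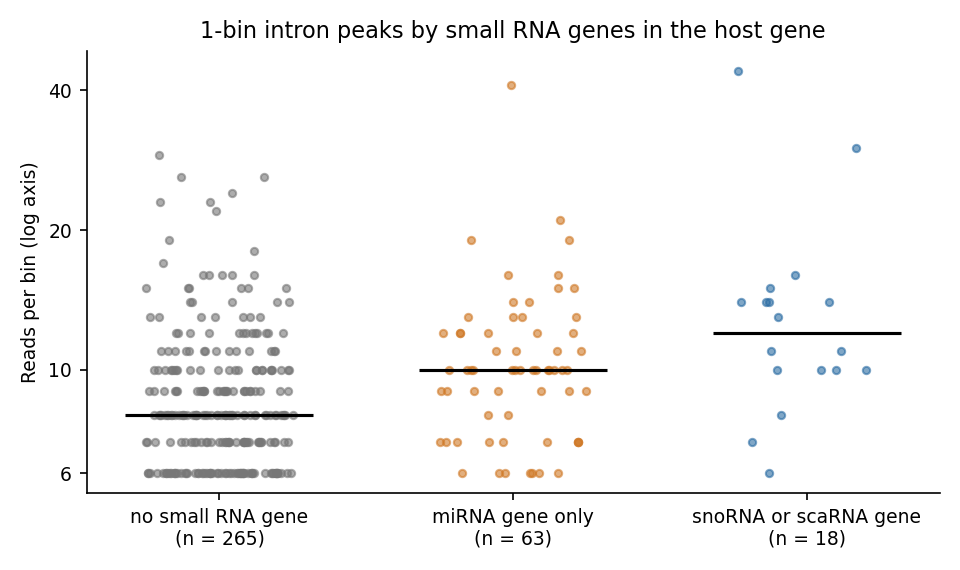
Read value of each 1-bin intron peak (y axis, reads per bin, log axis) by the small RNA genes inside the span of its gene (x axis), with the median as a black line. The points of the 3 classes overlap from 6 reads upward, and the medians are 8, 10 and 12 reads.

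IPO7, with the highest peak, holds SNORA23, and ATG16L1, with the peak of 30 reads, holds SCARNA5 and SCARNA6. RPS12 had 16 reads and holds SNORA33, SNORD100 and SNORD101. TPT1, which holds SNORA31 and SNORA31B, had 15 reads. EIF4G1, the scaffold of the cap-binding translation complex, had 2 peaks of 14 reads and holds SNORD66. CWF19L1 with SNORA12 and ATP6V0E1 with SNORA74B had 14 reads each. The other genes with a snoRNA or scaRNA had lower peaks, from 6 reads in SEC14L1, 7 in USP34 and 8 in EEF2 up to 13 in EIF3A. HSP90B1 holds no snoRNA but the microRNA gene MIR3652. Of the 17 genes with a snoRNA or scaRNA, 10 had no exon peak, near the 138 of all 247 genes. Whether any of these bins lies over the small RNA itself was not tested, for want of a genome of the list's build. TOP2A, PLXNB2, SRRM2, LENG8, TCF25, CSNK1D and ITGA3, the other 7 of the 10 highest, hold no annotated small RNA gene.

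The small RNA of the gene with the highest peak, a snoRNA of the other box class and the microRNA of the gene with the second highest peak are shown as examples of the small RNAs annotated within the spans of these genes. SNORA23 is of the H/ACA class, and capitals mark its ACA box near the 3′ end. SNORD66 is of the C/D class, and capitals mark its C box and D box. In the microRNA, from RefSeq (GRCh38.p14), they mark the seed at bases 2 to 8. The first 2 are GENCODE transcripts.
SNORA23: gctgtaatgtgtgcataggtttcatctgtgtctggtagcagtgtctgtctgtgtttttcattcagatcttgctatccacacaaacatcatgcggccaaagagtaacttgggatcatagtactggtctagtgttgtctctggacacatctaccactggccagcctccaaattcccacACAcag
SNORD66: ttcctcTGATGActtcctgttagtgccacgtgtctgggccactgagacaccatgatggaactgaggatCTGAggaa
hsa-miR-3652: cGGCUGGAggugugagga

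Most genes had a single 1-bin intron peak. Of the 247 genes, 196 had 1, 27 had 2 and 24 had 3 or more, so that 51 (20.6%, 16.1 to 26.1) had more than 1. The 24 genes with 3 or more held 99 of the 349 peaks (28.4%). LAMA5, the alpha 5 chain of the laminins of basement membranes, had 9. LTBP3, which holds latent TGF-beta in the matrix, TRIO, a guanine nucleotide exchange factor, and DST, a giant linker of the cytoskeleton, had 6 each. TCF25, HSF1, the main transcription factor of the heat shock response, COL1A1, the alpha 1 chain of type I collagen, and FASN, the fatty acid synthase, had 5 each. PLEC, which ties intermediate filaments to other structures, INPPL1, a phosphoinositide phosphatase, SBNO2 and UBR4, a ubiquitin ligase, had 4 each.

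Within these genes the peaks differed in height. The 9 LAMA5 peaks had 9, 12, 6, 19, 12, 10, 13, 10 and 11 reads from the 5′ end of the gene to the 3′ end, over 35600 nt. The peak of 19 reads stood above the rest, but its interval (11.4 to 29.7) covered the peaks of 12 and 13 reads. The 5 TCF25 peaks had 7, 23, 15, 7 and 8 reads. The peak of 23 reads (14.6 to 34.5) and its neighbour of 15, with a gap of 1600 nt between them, stood out from the other 3. The only exon peak of TCF25, of 10 reads, lay 9200 nt from the nearest of the 5.

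The 5 HSF1 peaks had 19, 12, 8, 8 and 7 reads and lay within 4600 nt, the most compact set among the genes with 5 or more. The COL1A1 peaks had 7, 8, 9, 8 and 14 reads, and 2 wider intron peaks of 14.8 and 26.3 reads per bin lay downstream of them, so the highest intron signal of COL1A1 was outside the 1-bin class. The FASN peaks had 9, 13, 8, 8 and 10 reads among 11 exon peaks with a median of 14. The PLEC peaks had 11, 11, 21 and 12 reads within 3000 nt, 5′ of all 9 of its exon peaks.

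In TRIO and DST the peaks were low and far apart. The TRIO peaks had 6, 8, 8, 6, 7 and 13 reads over 140600 nt, whereas its 16 exon peaks had a median of 13. The DST peaks had 8, 6, 11, 12, 9 and 6 reads over 124400 nt beside 12 exon peaks with a median of 11.5. UBR4 had the lowest set, with 7, 6, 6 and 7 reads.

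**Figure D3:**
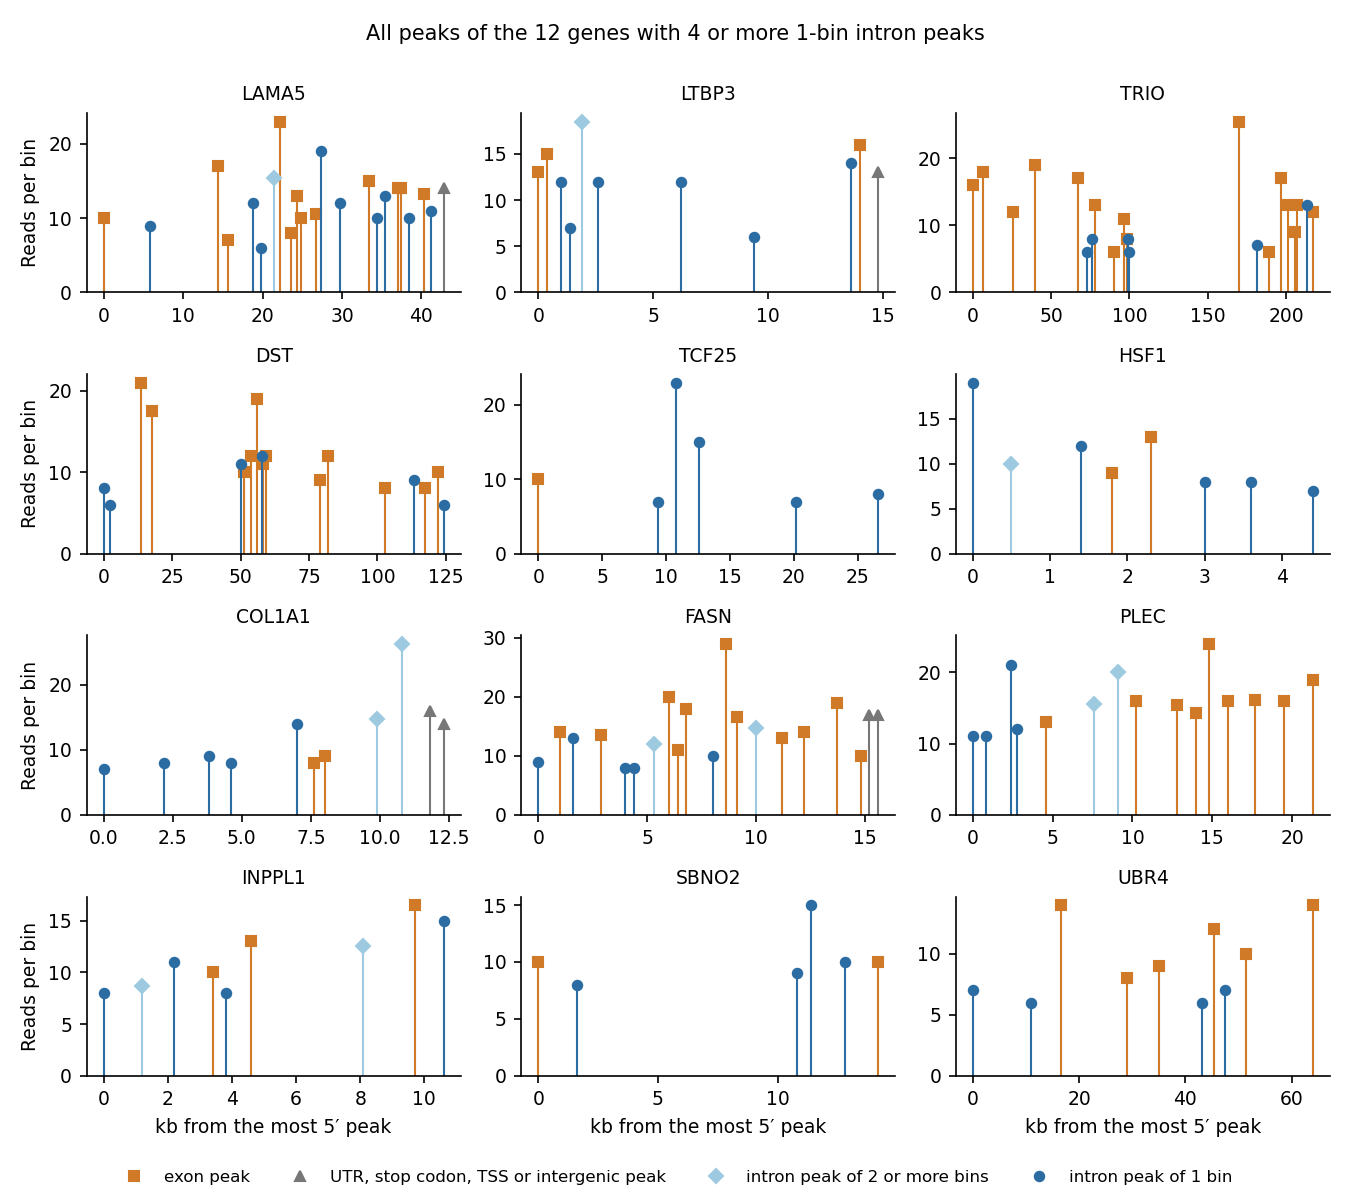
All peaks of the 12 genes with 4 or more 1-bin intron peaks, by distance from the most 5′ peak of the gene (x axis, kb) and read value (y axis, reads per bin, a separate scale for each gene). Blue circles are the 1-bin intron peaks, which lie among the exon peaks (orange squares) in LAMA5, FASN and DST, 5′ of the exon peaks in PLEC and 3′ of the only exon peak in TCF25.

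The other 12 genes had 3 peaks each. Beside TOP2A (10, 12 and 29 reads), PLXNB2 (10, 16 and 26), SRRM2 (9, 14 and 26), LENG8 (8, 10 and 24) and ITGA3 (8, 10 and 22), each with 1 peak of 22 reads or more, they were HGS, PXN, ANXA2, ITPR3, COL3A1, AP3D1 and COL1A2, whose 21 peaks had 6 to 12 reads. HGS sorts ubiquitinated receptors at endosomes, PXN (paxillin) is a focal adhesion adaptor, and ITPR3 is a calcium channel of the endoplasmic reticulum. ANXA2, a membrane-binding annexin with 11, 7 and 7 reads, was the only one of the 24 genes without a peak of the class exon. It did have 1 peak at an untranslated region, a stop codon or a transcription start. In 21 of the other 23 the median exon peak, of any width, was higher than the median 1-bin intron peak. In PLXNB2 and ITPR3 the medians were 16 and 10 reads in both kinds of peak.

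Among genes with at least 1 such peak, the number of peaks did not follow the amount of intron. Genes without one were left out and most of the others had exactly 1. The values therefore do not cover whether a gene had a peak at all. Across the 245 genes with a model, the Spearman correlation of 1-bin intron peaks per gene with intronic length was -0.01, with the number of introns 0.31 and with the number of exon peaks 0.47. The genes share 1 library, depth and peak caller, and these correlations are descriptions. The genes with 3 or more peaks had a median of 30372 nt of intron, close to the 30136 nt of genes with 1 peak. They had 31 introns against 14, and a typical intron of 422 nt against 949 (medians of the median intron of each gene).

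Clusters held a minority of the peaks. When peaks of a gene were joined at gaps of up to 1000 nt, 36 of the 349 (10.3%, 7.54 to 13.95) had a neighbour, in 17 clusters on 15 genes, 15 of them pairs and 2 of 3 peaks. With intron peaks of any width the share with a neighbour was 17.0% (13.6 to 21.0). The first group of 3 was in LTBP3, on chromosome 11 from 65318601 to 65320400, with 12, 7 and 12 reads, and a wider intron peak of 18.5 reads per bin lay between its members. The second was in HSF1, on chromosome 8 from 145536001 to 145537600, with 8, 8 and 7 reads. No cluster had an exon peak between its members. The pairs of PLEC (12 and 21 reads), FASN (8 and 8), HGS (7 and 10) and LTBP3 (7 and 12) were 200 nt apart, which is 1 bin. PTBP1, the polypyrimidine tract binding protein that represses exons, had a pair of 7 and 7 reads 400 nt apart. Among the 153 peaks with another on the same gene, the median gap to the next was 3000 nt and the largest 55800 nt.

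In genes that had one, the median gap from a 1-bin intron peak to the next exon peak was 1600 nt, and 78 of 200 peaks (39.0%, 32.5 to 45.9) lay within 1000 nt of it. Those 78 had a median of 10 reads, and the 122 farther away 8.5. The HSP90B1 peak and the SRRM2 peak of 26 reads lay 400 nt from an exon peak, and the TPT1 peak 200 nt. PQBP1 itself had 2 of the intron peaks, 11 reads at 200 nt from its highest exon peak and 7 reads at 2400 nt from an exon peak. The tagged construct and the chromosomal gene are not told apart there.

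Genes with and without an exon peak were of similar number. Of the 247 genes, 138 (55.9%, 49.6 to 61.9) had no exon peak. With intron and exon peaks alike limited to a p-value of at most 0.001 or to 10 reads or more, the share turned to a minority. It was 42.4% (33.2 to 52.3) and 42.2% (33.0 to 51.9). Among the 138 genes, 128 had a single 1-bin intron peak or a few and nothing else in the list. A peak at an untranslated region, a stop codon or a transcription start was present in 6 of the 138. With these classes counted as exon, 53.4% (47.2 to 59.6) of the 247 genes had no exon peak. The 109 genes with both held 200 of the 349 peaks. A second 1-bin intron peak occurred in 10 of the 138 genes (7.25%, 3.98 to 12.8) and in 41 of the 109 (37.6%, 29.1 to 47.0). Heights differed as well. The 149 peaks of intron-only genes had a median of 8 reads (quartiles 6 and 10) and the 200 others a median of 9.5 (7 and 12). At least 10 reads were found in 25.5% (19.2 to 33.1) of the former and 50.0% (43.1 to 56.9) of the latter. A p-value of at most 0.001 was found for 24.8% (18.6 to 32.3) and 48.0% (41.2 to 54.9).

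The intron-only genes with more than 1 peak were ANXA2 with 3, and CSNK1D (10 and 23 reads), SREBF1 (10 and 13), GAK (7 and 12), SMURF2 (8 and 11), C7orf50 (7 and 10), PKM (8 and 9), CPNE7 (8 and 8), U2SURP (6 and 8) and PTBP1 with 2 each. ANXA2 and PKM each also had 1 peak at an untranslated region, a stop codon or a transcription start. SREBF1 is the transcription factor of lipid synthesis genes, and PKM is a pyruvate kinase known for a choice between mutually exclusive exons. Among the 109 genes with both kinds, exon peaks were more numerous in 60, equal in 35 and fewer in 14. The 14 were LTBP3, COL1A1, TCF25, HSF1, INPPL1, SBNO2, AP3D1, COL3A1, PXN, EIF5B, MYCBP2, MINK1, RPL8 and ZNF512B. The median exon peak was the higher in 76 of the 109 genes, the lower in 25 and equal in 8. In both comparisons exon peaks of any width were set beside intron peaks of 1 bin alone.

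The gene models of both classes differed. Intron-only genes had a median length of 43271.5 nt (quartiles 21769 and 102922), 14 introns and a typical intron of 1278.5 nt. Genes with both kinds had 30507 nt (16091 and 66632), 23 introns and a typical intron of 435.5 nt. Introns shorter than 200 nt, shorter than a bin, made up 397 of 2355 (16.9%) and 955 of 3172 (30.1%). A bin placed on such an intron covers exon as well. Bases G and C made up a median of 48.8% of intron sequence in intron-only genes, 52.3% in genes with both, and 46.3% in genes with exon peaks and no intron peak. A gene on the opposite strand overlapped 53.5% (47.2 to 59.6) of the genes, near the 54.2% (48.6 to 59.7) of genes with exon peaks and no intron peak. The strand of each peak was that of its gene model in all 346 peaks with one. The list does not show whether that strand came from the reads or from the annotation. Whether reads from such a partner are included was therefore not determined.

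Some stretches of the genome held many of the peaks. In windows of 1 Mb, in the build of the list, the largest number was 15 on chromosome 8 from 145000001 to 146000000. They lay on 7 genes, HSF1, PLEC, CPSF1, GPAA1, PARP10, TONSL and VPS28, and the window also had 13 exon peaks, counted at any width. Further exon peaks of PLEC lay just below the start of this window, so the balance of both kinds depends on where its edge falls. CPSF1, a subunit of the factor that cleaves pre-mRNA ends, had 10 and 19 reads. The window on chromosome 19 from 1000001 to 2000000, had 10 on 7 genes, SBNO2, CSNK1G2, DAZAP1, MUM1, RPS15, TCF3 and TMEM259, against 5 exon peaks. The window of LAMA5 on chromosome 20 had 9, all on that gene. Chromosome 17 held the most of all chromosomes, 38 peaks on 20 genes (10.9%, 8.04 to 14.6), against 8.35% (6.52 to 10.6) of the 1-bin exon peaks. Chromosome 1 held 28 (8.02%, 5.61 to 11.4), against 11.9% (9.70 to 14.5). The intervals of both classes overlapped on all 23 chromosomes but 14, which held 4 of the intron peaks (1.15%, 0.447 to 2.91) and 4.38% (3.11 to 6.16) of the 1-bin exon peaks.

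**Figure D4:**
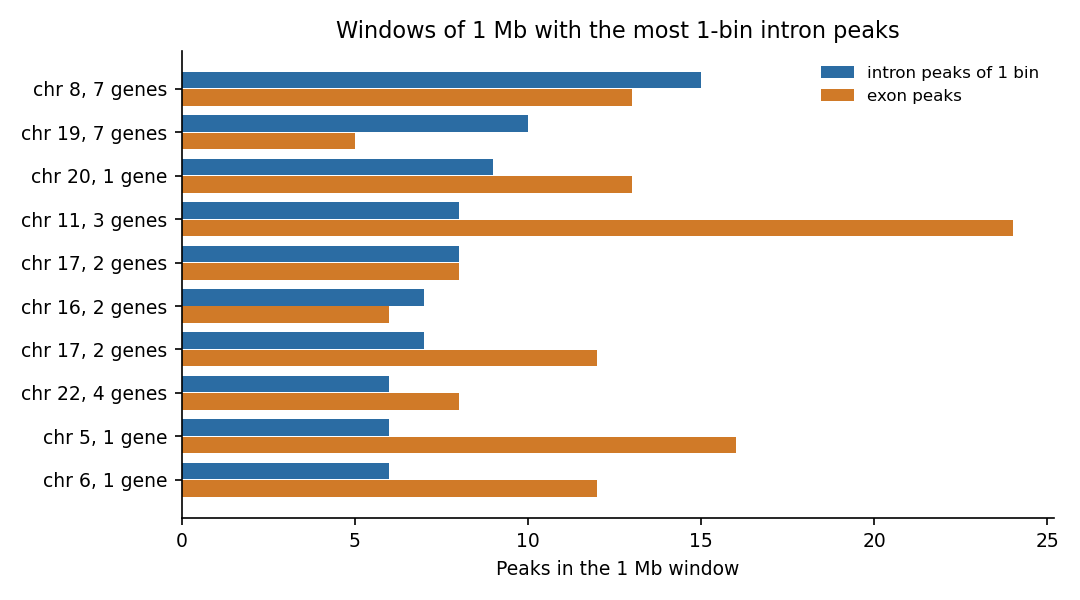
Number of 1-bin intron peaks (blue) and exon peaks (orange) on the x axis, in the 10 windows of 1 Mb with the most 1-bin intron peaks (y axis, by chromosome and number of genes with such peaks). Exon peaks are counted at any width. Intron peaks outnumber exon peaks within the limits of the chromosome 8 window (15 and 13), the chromosome 19 window (10 and 5) and the chromosome 16 window (7 and 6). Further exon peaks of PLEC lie just outside the chromosome 8 window.

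The genes were sorted by function into 12 lists, which held 149 of the 247 genes (60.3%, 54.1 to 66.2), each in 1 list. The lists were built from patterns of gene symbols and are not complete, so that U2SURP, PABPC1, IGF2BP2, DAZAP1 and PNN, all RNA-binding or splicing proteins, fell in none. A pattern can also take in a gene of another function. The same lists held 56.7% (51.1 to 62.1) of the 307 genes with exon peaks and no intron peak and 57.4% of all 629 genes with an mRNA peak. The shares are given side by side as counts, and in every list the interval of the genes with 1-bin intron peaks overlapped that of the exon genes.

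**Figure D5:**
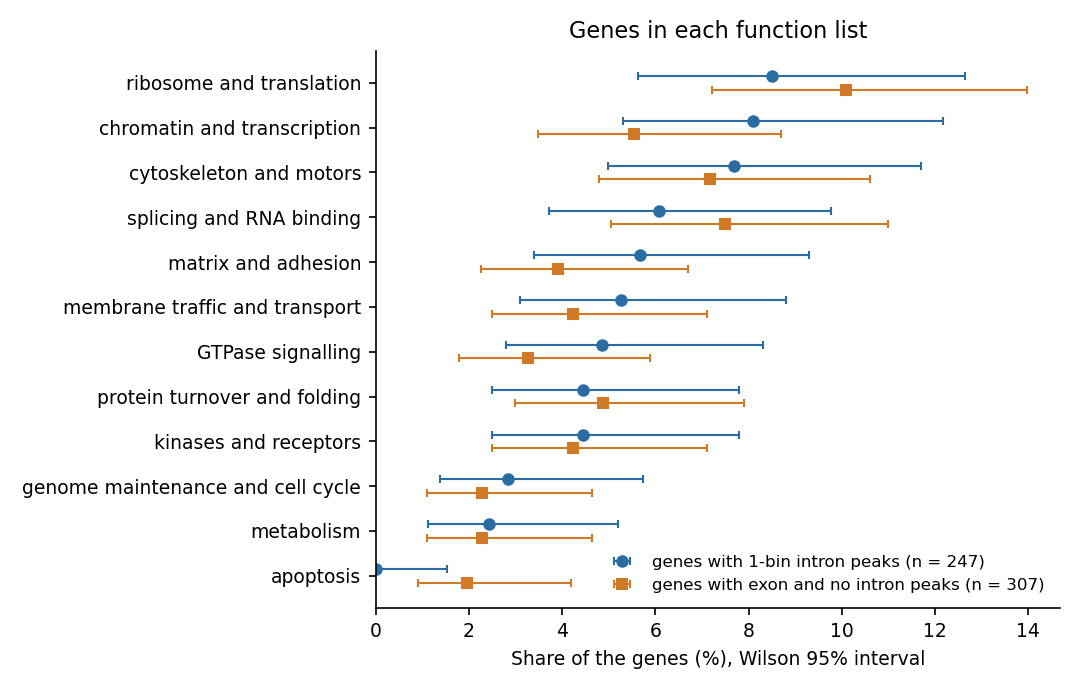
Share of genes in each function list (x axis, %, with Wilson 95% intervals), for the 247 genes with 1-bin intron peaks (blue circles) and the 307 genes with exon peaks and no intron peak (orange squares). The intervals overlap in each of the 12 lists, also for apoptosis with 0 and 6 genes.

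Ribosome and translation was the largest list, with 21 of 247 genes (8.50%, 5.63 to 12.6) against 10.1% of the exon genes. Its 24 peaks had a median of 10 reads. Ribosomal protein genes supplied 11 of the 21, with 12 peaks of 6 to 16 reads. RPS12 and RPS27 had 16 reads each, RPL19 14 and RPL13A 11, and 6 of the 11 had no exon peak (RPS12, RPS27, RPL10A, RPL31, RPS27A and RPS14), again near the share over all 247 genes. Among translation factors, EIF4G1 had 14 and 14 reads and EIF5B, which joins the ribosomal subunits, 7 and 13. RPL8 had 7 and 11.

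Chromatin and transcription held 20 genes (8.10%, 5.30 to 12.2) against 5.54% of the exon genes. Of the 20, 13 had no exon peak, beside 138 of all 247 genes (55.9%). TCF25 and SREBF1 led it, and all 20 genes, TCF25, WDR55 and ZNF598 among them, were placed by symbol alone. ATRX, a chromatin remodeller, had 15 reads, and ZNF512B had 6 and 7. The histone deacetylase genes HDAC4, HDAC7 and HDAC10 were in this list, with 8 or 9 reads each.

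Cytoskeleton and motors held 19 genes (7.69%, 4.98 to 11.7) against 7.17%, and 13 of these also had exon peaks, beside 109 of all 247 genes. After DST and PLEC came FLNA, the actin crosslinker filamin A, with 16 and 10 reads, and MACF1, a microtubule and actin linker, with 10 and 8. Splicing and RNA binding held 15 genes (6.07%, 3.71 to 9.78) against 7.49%. SRRM2, CPSF1, PQBP1 and PTBP1 had the most peaks, and PRPF8, the core of the spliceosome, had 12 reads. SF3B1, a core protein of the U2 particle, had 1 exon peak of 11 reads and WBP11 had 0 peaks of any kind, so neither carried a 1-bin intron peak.

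Matrix and adhesion held 14 genes (5.67%, 3.41 to 9.29) against 3.91%, and these carried 42 peaks, the most of any list, with a median of 10 reads. LAMA5, LTBP3 and COL1A1 supplied 20 of the 42. The 4 collagen genes COL1A1, COL1A2, COL3A1 and COL6A1 had 13 peaks of 6 to 14 reads, and all 4 also had exon peaks. Of the 14 genes, 3 had no exon peak, beside 55.9% of all 247 genes.

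Membrane traffic and transport held 13 genes (5.26%) against 4.23% of the exon genes. Of the 13, 10 had no exon peak, beside 55.9% of all 247 genes. IPO7 was the highest there, HGS and AP3D1 had 3 peaks each, and ATP6V0E1, a subunit of the vacuolar proton pump, had 14 reads. GTPase signalling held 12 (4.86%) against 3.26%, with TRIO first, and with CDC42BPB and DOCK1 at 11 reads and ACAP3 at 10. CDC42BPB is a kinase that acts downstream of CDC42, not a GTPase regulator.

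Kinases and receptors held 11 genes (4.45%) against 4.23% of the exon genes. INPPL1 (8, 11, 8 and 15 reads) and CSNK1D led it, followed by MINK1 (6 and 8) and CSNK1G2 (13). INPPL1, a phosphatase, is neither a kinase nor a receptor, and nor are PTPN11, PLCB3 and PPP6R2 of the same list. Protein turnover and folding also held 11 (4.45%) against 4.89%, with UBR4, the ubiquitin ligases SMURF2 and MYCBP2 (6 and 7 reads), and HSP90B1. Genome maintenance and cell cycle held 7 (2.83%) against 2.28%, with TOP2A first, MKI67 at 10 reads and PLK3 at 9. CDC37, with 14 reads, is best known as a partner of the HSP90 chaperone. Metabolism held 6 (2.43%) against 2.28%, among them FASN, PKM, ENO1 with 12 reads and ALDOA with 10, the last 3 being enzymes of glycolysis.

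The apoptosis list held 0 of the 247 genes and 6 of the 307 with exon peaks and no intron peak. These were BAX, an effector of mitochondrial cell death, BIRC6, GSDMD, TNFRSF10D, TNFRSF25 and TNFRSF6B. No bin classed as intron in BAX is in the list, which says only that none passed the limits of the peak caller.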

How the data were processed

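Per the study's methods, adapters were cut by Trimmomatic, ribosomal sequences discarded, the rest aligned by TopHat (TopHat2 2.0.13 in the submitters' processing notes), and Piranha peaks annotated by HOMER. The read value of each peak was deposited by the authors as a coverage signal. Value times number of 200-nt bins was whole (within 0.01) in all 1489 peaks, so it was read as mean reads per bin, not scaled to depth. The p-value of each peak is as deposited by the authors, and its adjustment is not stated. The only depth measure was the 39952 reads in peaks, of which the 1-bin intron peaks held 3381 (8.46%).

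GRCh38 is named as the build, but 58 of 346 peaks (16.8%) overlapped their gene there and 18 of 349 ended beyond their chromosome, so peak positions were never set against the reference. Gene models (GENCODE release 44) were joined by RefSeq gene identifier for 245 of 247 genes, using the canonical transcript for introns. A gene symbol turned into a date was restored in 1 case. Input values were not analysed here.

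Shares carry Wilson and read values exact Poisson intervals at 95%, for counting error only, since without molecular identifiers a read is not an independent molecule. No test was run. Distance and cluster functions were tested on simulated data (Python 3.11.15, pandas 2.3.3, SciPy 1.17.1). Named were genes with 3 or more peaks, the 10 highest peaks, the 5 smallest p-values with ties, clusters of 3, PQBP1, BAX, SF3B1 and WBP11, and up to 4 genes per function list by number and height of peaks. Gene families, 1 Mb windows and the other genes named were added after values were seen. The peaks and lists were chosen with earlier results of these data known. Alternatives were limits on p-value and reads, width, merging, distance, exon class and kind of small RNA.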

Additional observations from a re-analysis of the deposited data

How the results depend on the processing

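Of 36 alternatives over 9 results, 15 stayed within the interval of the main value (within 1.5 times for counts) and 21 moved beyond it. A p-value limit of 0.001 left 133 peaks on 99 genes and a floor of 10 reads 138 on 102, with a median of 12 reads in both. Both limits were set on all peaks of the list, exon peaks included. Under these limits, in this order, genes without an exon peak fell to 42.4% and 42.2%, peaks with another within 1000 nt to 7.52% and 7.25%, peaks with an exon peak within 1000 nt rose to 27.1% and 30.4%, and genes with a small RNA gene rose to 38.8% and 38.6%. The majority of genes without an exon peak was thus lost when intron and exon peaks below 10 reads per bin were left out. Among genes with 1 intron peak 65.3% had no exon peak. Intron peaks of any width raised the share with a neighbour to 17.0%. A distance of 200 nt gave 2.29% for intron neighbours and 4.30% for exon peaks, and 5000 nt gave 32.1% and 45.8%, which follows from the distance itself. Hosts of snoRNA or scaRNA alone were 6.94%. The share of genes in a function list stayed between 59.5% and 61.8%. No paired analysis was possible because the Input and IP groups hold 1 library each. With a median of 8 reads, no single peak of this height can be told from its neighbours.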
